A study of Mus musculus with 42 samples.

Results

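Oxidative phosphorylation genes of the nuclear genome were followed through visceral adipose stromal cells, the adipocytes made from them, floating adipocytes and regulatory T (Treg) cells of the mouse. Members were chosen by symbol alone, as genes that begin with Nduf, Uqcr, Cox4 to Cox8 or Atp5 or are Sdha, Sdhb, Sdhc or Sdhd, without Cox7a1, Cox8b and symbols marked -ps, and with at least 10 counts summed over all libraries. Of 111 matching symbols, 14 were -ps rows, 2 were the genes left out by name and 3 (Cox7b2, Cox8c and Ndufb4c) were below 10 counts, which left 92 members of the 55011 genes in the table. The rule itself uses no measured difference between groups. The members hold 36 subunits of complex I, 8 complex I assembly factors, 4 subunits of complex II, 8 of complex III, 11 of complex IV and 17 of complex V. The other 8 are 4 isoforms with restricted or inducible expression (Ndufa4l2, Cox4i2, Cox6a2 and Cox6b2), the supercomplex factor Cox7a2l, and 3 annotated processed copies (Cox6c2, Ndufa11b and Ndufs6b). The 3 copies had too few counts to be tested in the comparisons as reported. Reads that such copies share with their parent genes cannot be assigned here, so levels of genes with near-identical copies are uncertain; of the -ps rows left out, Ndufb1-ps had the most counts, 12167. The threshold of 10 counts falls among genes that are almost silent here, since Cox6c2, Ndufa11b and Ndufs6b, just inside it, summed to 55, 23 and 13 counts over 42 libraries, and Cox7b2, Cox8c and Ndufb4c, just outside it, to 0, 2 and 2.

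The study sequenced RNA of 42 libraries in 15 groups. Stromal cells of the populations called VmSC4 and VmSC5, sorted from visceral adipose tissue (VAT) of Pparg-Tdt mice, were taken fresh (n = 3 each) or after 8 days in adipogenic medium (n = 3 each). The same populations were also transferred into recipient mice labelled Kaeda and sorted again, and each group is named by the cells put in and the cells recovered: VmSC5-derived VmSC5 (n = 2), VmSC4-derived VmSC5 (n = 3) and VmSC4-derived VmSC4 (n = 3). VmSC5 undergoing adipogenesis received PBS or oncostatin M (OSM), a cytokine of the interleukin-6 family, at 10 ng/mL (n = 3 each), or were cultured without or with Treg (n = 3 each). For that last pair the titles name Treg cells, whereas the series text speaks of medium conditioned by VAT Tregs. Floating cells, labelled adipocytes, came from Pparg-Tdt:Foxp3-DTR- and Pparg-Tdt:Foxp3-DTR+ mice, both given diphtheria toxin, which kills cells that make the toxin receptor from the Foxp3 locus (n = 2 each, numbered replicate 2 and replicate 3). Treg cells of epididymal VAT came from OSM+/+ mice (WT, n = 3) and OSMf/f mice (KO, n = 3). All stromal cells and adipocytes, controls included, carry the Pparg-Tdt genotype. Which Cre acts in the OSMf/f mice is not given in the sources used here. Nothing in the labels says that replicates were separate animals or cultures, so p-values measure only the spread between these libraries, which may be technical.

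Oxidative phosphorylation makes most of the ATP of a resting cell. Complex I takes electrons from NADH and complex II from succinate, both pass them through ubiquinone to complex III, cytochrome c carries them on to complex IV, which reduces oxygen, and complex V (ATP synthase) uses the proton gradient built by complexes I, III and IV. Complex II is wholly nuclear-encoded, while the other complexes also need subunits encoded by mitochondrial DNA. White adipocytes build many mitochondria as they differentiate from preadipocytes. Nuclear respiratory factor NRF1, GABPA of the ETS family, ERRA (the product of Esrra) and YY1 are known to act at promoters of many of these genes.

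Because most members moved together in several comparisons below, their promoters were searched for those 4 motifs. RefSeq promoters (build GRCm38.p6, 250 bases before to 50 after each gene start) matched 73 of 92 members, with 78 promoters. The letters searched on both strands were GCGCANGCG for NRF1, CCGGAAG for ETS, TCAAGGTCA for ERRA and AAGATGGCG for YY1, and no matches to different motifs overlapped in the members. The following sites belong to members described below and are shown 5′ to 3′ on the gene's own strand, with the match in capitals.
Ndufb10, NRF1 motif, chr17:24724406-24724435 (minus strand): tcacctttctGCGCAGGCGtagaggtcccg
Ndufs8, ETS motif, chr19:3912741-3912770 (minus strand): ttaggctccgcCTTCCGGttgaaccgcatc
Ndufs7, YY1 motif, chr10:80249463-80249492 (plus strand): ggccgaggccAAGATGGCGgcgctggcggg
Ndufaf1, ETS motif, chr2:119662834-119662863 (minus strand): cgggaccacaaCCGGAAGcgtggcgaaccg
Sdha, NRF1 motif, chr13:74350231-74350260 (minus strand): gcgactcggtGCGCAAGCGcagtctgtcgc
Sdhb, ETS motif, chr4:140961266-140961295 (plus strand): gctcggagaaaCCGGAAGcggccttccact
Sdhd, ERRA motif, chr9:50603800-50603829 (minus strand): tttccgggttgtagagTGACCTTGAgccct
Sdhd, NRF1 motif, chr9:50603909-50603938 (minus strand): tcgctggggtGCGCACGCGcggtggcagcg
Uqcrc1, NRF1 motif, chr9:108936644-108936673 (plus strand): ttccttacagCGCTTGCGCctcagactccg
Uqcr11, NRF1 motif, chr10:80406807-80406836 (minus strand): atcgccttcaCGCATGCGCtatacgtctgc
Uqcrh, ETS motif, chr4:116075062-116075091 (minus strand): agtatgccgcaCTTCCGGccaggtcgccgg
Cox6b1, ETS motif, chr7:30626124-30626153 (minus strand): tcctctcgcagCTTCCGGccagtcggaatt
Cox8a, ETS motif, chr19:7217603-7217632 (minus strand): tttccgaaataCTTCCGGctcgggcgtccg
Atp5g3, ERRA motif, chr2:73911359-73911388 (minus strand): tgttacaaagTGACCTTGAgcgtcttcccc
The stretch upstream of the RefSeq start used for Cox7a2l, a member that rose after transfer while most others fell, is also shown. It lies within the GENCODE M21 span of the gene given below, so it precedes a start internal to that span. The RefSeq promoter of Cox7a2l held none of the 4 motifs, nor did that of Ndufv2, which rose in VmSC5-derived VmSC5. Promoters of Sdhd, Ndufaf1, Ndufc1 and Atp5md, which rose there too, held matches. Whether motifs go with the direction of change was not tested.
Cox7a2l, no match, chr17:83514334-83514433 (minus strand): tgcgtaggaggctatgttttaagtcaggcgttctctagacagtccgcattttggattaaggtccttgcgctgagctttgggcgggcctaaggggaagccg

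An NRF1 match was present in 29.5% of the members' promoters (23 of 78) against 6.25% of all 32851 RefSeq promoters of that length. The ETS motif was in 24.4% (19) against 8.86%, the YY1 motif in 10.3% (8) against 1.4%, and the ERRA motif in 2.56% (2, Sdhd and Atp5g3) against 0.423%. At least 1 of the 4 stood in 52.6% of the members' promoters and in 15.2% of all. The share with any match was 50% in complex I, 60% in complex III, 33.3% in complex IV and 61.1% in complex V, and all 3 complex II promoters found had one. The shares were not compared with promoters of like base composition. A match describes the letters of the promoter and not a bound site.

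Total counts ran from 8527769 to 12514783 in the fresh stromal libraries and from 1072147 to 7933682 in all others. Levels are CPM, counts scaled to a library total of 1e+06, and CPM per kilobase of transcript (CPM/kb) where genes are set beside each other. Gene positions below are from GENCODE M21 (GRCm38, the build called mm10 in the submitters' notes). Labels were checked against markers. All 8 adipocyte markers were detected in the cultured cells (33716 to 37288 CPM summed per library) and in the floating cells (29926 to 45005 CPM), against 158 to 234 CPM in the fresh stromal cells, whose 7 stromal markers summed to 41042 to 46980 CPM. All 6 Treg markers, Foxp3 among them, were detected in both Treg groups. The level of Osm itself in WT Treg cells was 29.1, 28.4 and 34.1 CPM and in KO Treg cells 9.83, 14.6 and 7.76 CPM, so the KO libraries were lower without overlap but not at 0; which exons carry the remaining reads was not analysed here.

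The summed level of all members spanned 10.08-fold between the 15 group means, with cultured adipocytes at the top and transferred stromal cells at the bottom. The sum was 55775 CPM in cultured VmSC4 (53987 to 57900 over libraries) and 54790 CPM in cultured VmSC5 (52271 to 58456). These 2 groups overlapped. Next came VmSC5 without Treg at 42409 CPM (40370 to 44494), DTR+ floating cells at 39178 CPM (31854 and 46502) and VmSC5 with Treg at 27202 CPM (25997 to 28972). The DTR+ range contained that of VmSC5 without Treg. DTR- floating cells followed at 22524 CPM (20298 and 24750), which overlapped VmSC5 with PBS at 21539 CPM (21201 to 22148). Treg KO cells at 10526 CPM and VmSC5 with OSM at 10496 CPM overlapped each other, and WT Treg cells stood at 9660 CPM. Fresh VmSC4 at 8657 CPM (8229 to 9193) and fresh VmSC5 at 8034 CPM (7663 to 8289) overlapped, and the transferred groups VmSC5-derived VmSC5, VmSC4-derived VmSC5 and VmSC4-derived VmSC4 were lowest at 6222, 5945 and 5535 CPM, with each neighbouring pair overlapping. These groups come from separate preparations, so the order is a description; in bulk RNA, fewer cells of a type and less RNA per cell cannot be told apart.

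**Figure D1:**
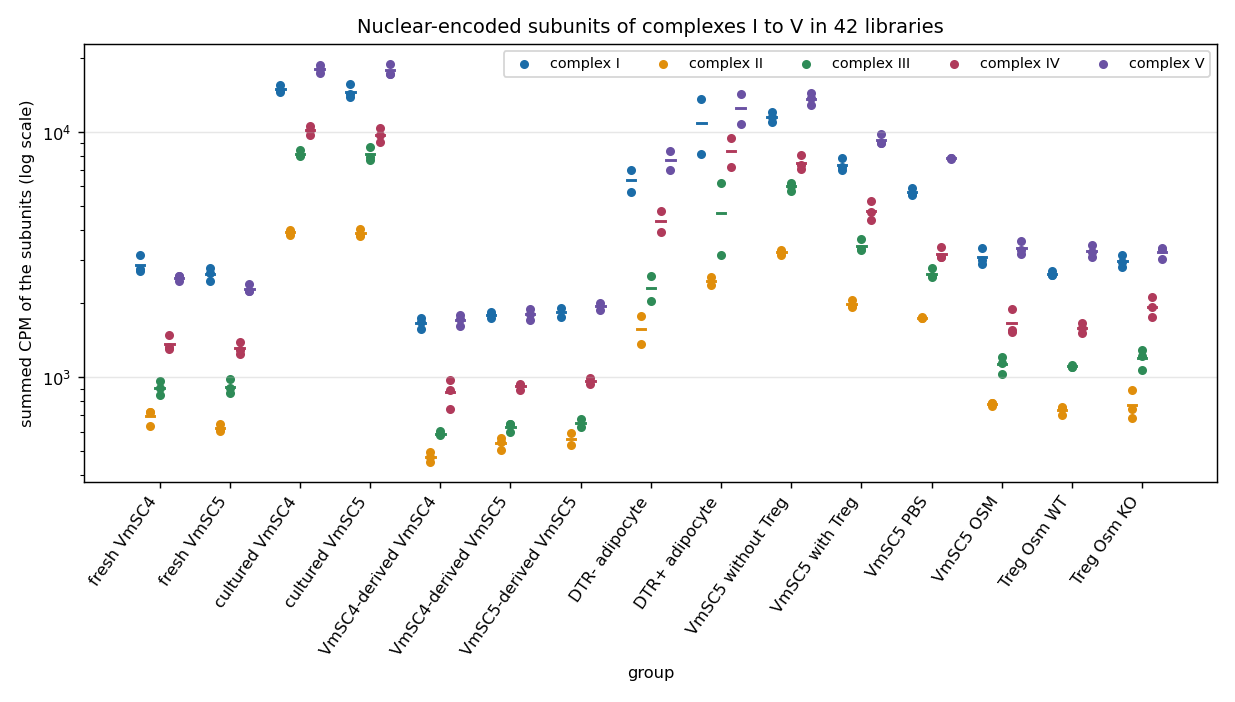
Summed CPM of the members of each complex (log axis) in every library of the 15 groups, with a bar at each group mean. Complexes I to V keep nearly parallel profiles, from 55775 CPM for all members in cultured VmSC4 down to 5535 CPM in VmSC4-derived VmSC4.

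Within that order the members differed widely in range. Over the 84 subunits and assembly factors of complexes I to V, the highest group mean was a median of 10.6 times the lowest. Complex III had the widest median span, 16.7-fold, followed by complex IV at 12.6-fold, complex II at 9.86-fold, complex V at 9.81-fold and complex I at 9.47-fold, while the complex I assembly factors spanned only 5.54-fold. Uqcrfs1, the Rieske iron-sulfur subunit of complex III, had the widest span of all at 22.7-fold. Ndufaf7, an assembly factor named after its values were seen, had the narrowest at 2.38-fold. Of the 84 genes, 66 were highest in 1 of the cultured groups and 62 were lowest in a transferred group. Cox7a2l, which joins complexes III and IV into supercomplexes, spanned 3.21-fold.

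Per kilobase, complexes III and IV were the most abundant in cultured VmSC4, with median levels of 1201 and 1196 CPM/kb over their members, against 579 in complex V, 568 in complex II and 468 in complex I. Complex I assembly factors were at 32.7 CPM/kb. In fresh VmSC4 the same medians were 139 and 165 CPM/kb for complexes III and IV, 149 for V, 95.8 for II, 95.4 for I and 15.4 for the assembly factors. Atp5b, the catalytic beta subunit of ATP synthase, was the most abundant member of complex V in both groups, at 3568 CPM/kb in cultured and 325 CPM/kb in fresh VmSC4. Cox4i1, the common form of a subunit that joins cytochrome oxidase early in its assembly, led complex IV at 3111 and 428 CPM/kb. The 3 genes for the c subunit, which encode the same mature protein of the rotating ring, were used unequally. Atp5g3 gave 79.8% of their summed CPM/kb in fresh VmSC4 and 93.9% in cultured VmSC4, while Atp5g2 gave 8.71% and 1.49%. Atp5g1 gave 11.5% and 4.65%. These shares depend on the median transcript lengths used, 2675.5 bases for Atp5g1 against 718.5 for Atp5g3 and 586 for Atp5g2. The long value for Atp5g1 makes its share smaller than it would be in CPM.

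Adipogenic culture went with a rise of every member tested, in both populations. All 89 members tested rose in cultured VmSC4 against fresh VmSC4, with a median log2 fold change of 3.04 against -0.23 over all 13221 genes tested, of which 31.9% rose and 38.5% fell (edgeR quasi-likelihood test, adjusted p under 0.05). In VmSC5 all 89 rose as well, with a median of 3.05 against -0.18, and 33.4% of all genes rose and 37.6% fell. Median log2 changes in VmSC4 were 3.69 for complex III (8 of 8), 3.41 for IV (11 of 11), 3.03 for II (4 of 4), 2.99 for V (17 of 17), 2.74 for I (36 of 36) and 1.86 for the assembly factors (8 of 8). The values for VmSC5 were 3.50, 3.39, 3.07, 3.02, 2.87 and 1.88 in that order. Summed CPM rose 8.99-fold for complex III and 5.19-fold for complex I in VmSC4, and complex I shrank from 34.2% ± 1.04 (SD, n = 3) of the summed CPM of complexes I to V in fresh VmSC4 to 27.1% ± 0.14 in cultured VmSC4. Complex III grew from 10.8% ± 0.17 to 14.8% ± 0.11. The comparison across all genes depends on scaling, since scaling by library total alone lowered the median of all genes by 0.54 in VmSC4 and by 0.43 in VmSC5, and the members then stood 3.27 and 3.23 above that median, as far as with TMM factors. Scaled that way, 3013 of all genes rose and 7046 fell in VmSC4, against 4212 and 5095 with TMM, and 3484 rose and 6416 fell in VmSC5, against 4416 and 4973.

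Among the tested subunits of complexes I to V, the Rieske subunit rose most in VmSC4. Uqcrfs1 (chr13:30540308-30545362, minus strand) was at 86.5, 100.3 and 89.9 CPM in the 3 fresh VmSC4 libraries and 1444, 1468 and 1411 CPM in the 3 cultured ones. Every cultured library was far above every fresh one, a log2 fold change of 4.51 ± 0.12 (SE; adjusted p = 4.91e-21), and the change in VmSC5 was 4.51 ± 0.13. Cox5a, a nuclear subunit on the matrix side of cytochrome oxidase, was at 38.8, 40.4 and 42.2 CPM fresh and 534, 532 and 517 CPM cultured. Atp5b (chr10:128083273-128090391, plus strand) went from 632, 635 and 599.6 CPM to 7151, 6734 and 6626 CPM. Neither gene's ranges overlapped, and the log2 changes were 4.25 ± 0.12 and 4.00 ± 0.12. Sdha and Ndufs1, the flavoprotein of complex II and the largest iron-sulfur subunit of complex I, rose by 2.83 ± 0.11 and 2.69 ± 0.13. The weakest rise among subunits was in Atp5g2, from 10.3, 13.4 and 7.96 CPM to 11.9, 16.9 and 14.0 CPM. Its ranges overlapped in CPM, and it had a log2 change of 0.99 ± 0.26 (adjusted p = 0.00167) with TMM scaling and 0.44 without a call with library totals. Cox6a2 (chr7:128205435-128206387, minus strand), the cytochrome oxidase isoform of heart and skeletal muscle, had 0 counts in all 6 fresh libraries and 98 counts over the 3 cultured VmSC4 libraries, at least 175-fold higher in pooled CPM against a floor of 3 counts over the group. In cultured VmSC5 its 40 counts gave at least 56.5-fold.

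Genes around the respiratory chain moved the same way. Of 36 assembly factors outside the rule, 34 rose in VmSC4 (median 1.73) and 34 in VmSC5 (1.72). Of 9 carriers and dehydrogenases that feed the chain, 8 rose and 1 fell in VmSC4, among them Cycs, cytochrome c, by 5.63 ± 0.14. All 4 genes for the ATP synthase inhibitor and the ADP/ATP and phosphate carriers rose, and 8 of 14 biogenesis regulators rose while 3 fell. All 11 mitochondrially encoded subunits tested rose too, with medians of 4.65 in VmSC4 and 6.67 in VmSC5. Depth was lower in the cultured libraries (1841664 to 2606360 counts) than in the fresh ones, wells were lysed without sorting, and summed stromal markers fell from 41042 or more to 1923 CPM or less as adipocyte markers appeared; their part in the size of the rise was not tested.

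**Figure D2:**
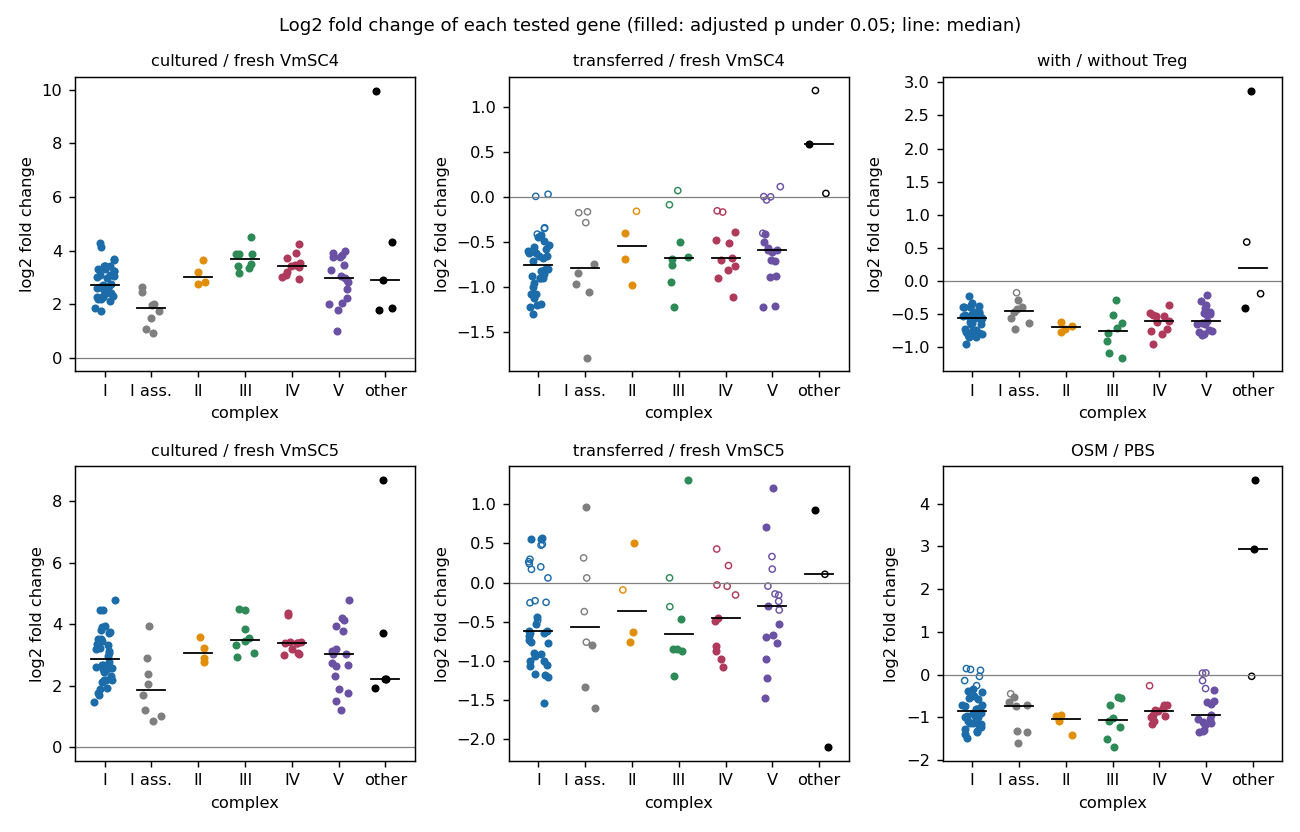
Log2 fold changes of all tested members by complex in 6 comparisons, each panel with its own vertical axis; filled points passed adjusted p under 0.05, lines are medians, and "other" holds the isoforms and Cox7a2l. In culture every point lies above 0, and with Treg or OSM nearly every point lies below it; the highest point of each culture panel is Cox6a2, which had 0 counts in the fresh cells.

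Cultured VmSC5 and cultured VmSC4 did not differ in any member past the threshold. The edgeR test called 0 of 89 (0.34% of all genes), 2 had an unadjusted p under 0.05, DESeq2 called 0, and the median log2 difference was -0.09. The culture response differed between the populations in 5 members, all with a larger rise in VmSC5, against 1.85% of all genes with a larger and 1.01% with a smaller rise. These were Ndufaf1 (1.48), Ndufb4 (1.23), Atp5md (0.97), Ndufv2 (0.90) and Ndufc1 (0.79), the last named after its values were seen. Leaving out 1 library in turn gave 1 to 8 such members, with 1 without cultured VmSC4 replicate 2 or cultured VmSC5 replicate 1 and 8 without fresh VmSC4 replicate 1. The contrast uses the same fresh libraries as the comparison of the fresh populations that follows.

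Fresh VmSC5 differed from fresh VmSC4 in 16 of 87 members tested, 15 lower and 1 higher, against 11% lower and 7.41% higher among all 13947 genes tested. The median over members was -0.03 against -0.02 over all genes. Of the lower members, 8 were complex I subunits, 3 of complex IV, 2 of V, 1 of III and 1 an assembly factor; no complex II subunit passed. Ndufv2, an iron-sulfur subunit at the NADH end of complex I, was at 101, 146 and 130.5 CPM in VmSC4 and 81.8, 57.3 and 45.4 CPM in VmSC5. Uqcrb, a small subunit of complex III, was at 51.1, 57.2 and 46.1 CPM and 33.1, 19.8 and 12.5 CPM. Ndufaf1, an early assembly factor of complex I, was at 16.4, 25.6 and 19.3 CPM and 10.7, 7.12 and 5.75 CPM. The ranges of the populations did not overlap for any of the 3 genes, whose log2 differences were -0.95 ± 0.16, -1.15 ± 0.23 and -1.28 ± 0.23 (adjusted p 0.000298, 0.00127 and 0.000386). In all 3, and in Atp5md, the lowest library was VmSC5 replicate 3. That library also had the lowest sum of mitochondrially encoded subunits, 722 CPM against 1039 and 1667 in the other 2 VmSC5 libraries and 3037 to 4220 in VmSC4, and 7 of 9 such subunits tested fell. The count of called members was 7 without VmSC4 replicate 2 (1 higher and 6 lower, when 858 and 1282 of 13828 genes were), 10 without VmSC4 replicate 3, 8 without VmSC5 replicate 2 and 8 without VmSC5 replicate 3. VmSC4 replicate 2 carried 354 CPM of Ighm, an immunoglobulin heavy chain gene of B cells, against 12.1 and 7.79 CPM in replicates 1 and 3. The single higher member was Ndufa4l2, described with the isoforms below.

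After transfer, most members were lower than in the fresh cells. In VmSC4-derived VmSC4, 66 of 87 members fell and 1 rose, while 24.7% of all genes fell and 21.4% rose, and the median log2 change was -0.67 against -0.02 over all genes. Falls were spread over complex I (31 of 36), II (3 of 4), III (6 of 8), IV (9 of 11), V (12 of 17) and the assembly factors (5 of 8). Ndufb8, an accessory subunit of complex I, was at 139, 158 and 119 CPM in fresh VmSC4 and 54.5, 53.4 and 56.9 CPM after transfer. All transferred libraries were below all fresh ones (-1.30 ± 0.13, adjusted p = 1.67e-08). Sdhb, the iron-sulfur subunit of complex II, fell by 0.98 ± 0.12, and Ndufb10 by 1.19 ± 0.15 on the log2 scale. In VmSC5-derived VmSC5, 46 members fell and 9 rose against fresh VmSC5, with a median of -0.48, when 22.4% of all genes fell and 23.9% rose. Ndufs8, an iron-sulfur subunit on the path to ubiquinone, was at 77.2, 89.6 and 118 CPM fresh and 33.2 and 35.2 CPM after transfer, without overlap (-1.54 ± 0.18). The 9 that rose were Cox7a2l, Uqcrb, Atp5pb, Atp5md, Sdhd, Ndufaf1, Ndufv2, Ndufc1 and Ndufab1, the last 2 named after their values were seen. Of these, Uqcrb, Atp5pb, Atp5md, Ndufaf1, Ndufv2 and Ndufc1 were also lower in fresh VmSC5 than in fresh VmSC4. Both comparisons use the same fresh VmSC5 libraries, so these rises are not independent of that difference.

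The 2 transfer comparisons share no libraries. Of the 66 members lower in the first and the 46 lower in the second, 45 were in both (68.2% and 97.8%), and Cox7a2l was the member higher in both. Most members tested fell in the first comparison, so much of the overlap of lower members could arise in any case. The overlap over all genes is not given here. Cox7a2l (chr17:83501918-83517330, minus strand) was at 79.3, 73.7 and 77.5 CPM in fresh VmSC4 and 111, 106 and 122 CPM in VmSC4-derived VmSC4. It was at 68.1, 68.8 and 68.5 CPM in fresh VmSC5 and 137 and 134 CPM in VmSC5-derived VmSC5. In both pairs every transferred library was above every fresh one (0.59 ± 0.11 and 0.93 ± 0.12). Mitochondrially encoded subunits went the other way to most members, with 8 of 9 higher in each comparison and medians of 1.17 and 3.00. Electron carriers fell with the members (8 of 9 and 6 of 9). Summed stromal markers were at 126118 to 130062 CPM in VmSC4-derived VmSC4 and 87247 to 88440 CPM in VmSC5-derived VmSC5, above the fresh cells; the part of that and of the lower depth was not tested.

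Between the transferred groups 2 of the 3 pairs were tested, and few members passed; VmSC5-derived VmSC5 against VmSC4-derived VmSC4, whose summed levels did not overlap (5987 to 6457 and 5202 to 5806 CPM), was not tested. VmSC4-derived VmSC5 and VmSC4-derived VmSC4 were told apart by 1 of 87 members (0.746% of all genes were higher and 1.03% lower). An unadjusted p under 0.05 was reached by 11 members, with the share of all genes not given here. Of 87 log2 differences, 78 were above 0 (median 0.14 against 0.04 over all genes). The called member was Sdhd (chr9:50596357-50603812, minus strand), a membrane anchor of complex II, at 62.0, 57.4 and 56.1 CPM in VmSC4-derived VmSC4 and 76.1, 74.9 and 82.2 CPM in VmSC4-derived VmSC5. The libraries did not overlap, and the log2 difference of 0.49 ± 0.13 had an adjusted p of 0.0461, which also passed with DESeq2 but not with RLE scaling, library totals alone, no low-count filter or any 1 library of the 2 groups left out. VmSC5-derived VmSC5 against VmSC4-derived VmSC5 gave 0 of 87 by edgeR (1.15% of all genes), 2 at an unadjusted p under 0.05 and 0 by DESeq2.

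Treg in the culture of VmSC5 went with lower levels of nearly all members. With Treg, 84 of 88 members fell and 1 rose, while 21% of all 12356 genes fell and 22.4% rose, and the median log2 change was -0.58 against 0.00 over all genes. All tested subunits of complexes I (36), II (4), III (8), IV (11) and V (17) fell, as did 7 of 8 assembly factors. Median changes were -0.75 in complex III, -0.70 in II, -0.61 in IV and V, -0.56 in I and -0.45 in the assembly factors. Summed over members, the level was 1.56-fold higher without Treg.

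The 2 largest falls were in small subunits of complex III. Uqcr11 was at 633, 602 and 587 CPM without Treg and 245, 264 and 299 CPM with Treg. Uqcrh, the hinge protein that helps bind cytochrome c1, was at 603, 659 and 589.6 CPM and 282, 267 and 314 CPM. Ranges were far apart in both, with log2 changes of -1.16 ± 0.06 (adjusted p = 2.16e-16) and -1.09 ± 0.06. Uqcrfs1 was at 1059, 1085 and 985 CPM and 545, 524 and 594 CPM (-0.90 ± 0.06). In complex I, Ndufs8 was at 301, 294 and 276 CPM and 141, 147 and 159 CPM (-0.95 ± 0.06). Atp5b was at 5006, 5271 and 4608 CPM and 3447, 3481 and 3793 CPM (-0.46 ± 0.06). For each of these genes every library with Treg was below every library without. Cox7a2l also fell, but less, by 0.41, and Cox6a2 and Cox6b2, the isoforms of muscle and testis, did not pass (log2 changes -0.19 ± 0.17 and 0.59 ± 0.25, adjusted p 0.40 and 0.0604).

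Beyond the members, 25 of 36 assembly factors fell and 1 rose with Treg, 8 of 9 electron carriers fell (median -0.75), all 4 genes of the ATP synthase inhibitor and carriers fell, 8 of 14 biogenesis regulators fell and 1 rose, and 11 of 11 mitochondrially encoded subunits fell (-1.16). Ppargc1b and Esrra, activators of mitochondrial gene expression, fell by 0.96 ± 0.09 and 0.50 ± 0.12; Ppargc1a had a log2 change of -0.01 ± 0.11. The 8 adipocyte markers, all detected, summed to 25969 to 27951 CPM without Treg and 16649 to 18707 CPM with Treg, and the 7 stromal markers, all detected, to 4301 to 5025 and 15931 to 18034 CPM. The 5 mesothelial markers, all detected, summed to 17.9 to 21.7 CPM without and 34.0 to 56.1 CPM with Treg, and 4 of 5 rose. Treg markers summed to no more than 4.16 CPM in both arms (6 markers), with Foxp3, Cd3e and Cd4 at 0 with Treg. The part of these marker shifts in the members' fall was not tested.

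OSM went with a fall of most members in every complex, complexes II and III without exception. With OSM, 72 of 87 members fell and 2 rose against PBS, when 23.0% of all 9825 genes fell and 22.8% rose, and the median was -0.90 against 0.00. Scaling by library totals alone lowered all genes by 0.10 and left the members 0.91 below their median, as before. Falls covered 30 of 36 subunits of complex I (median -0.86), 4 of 4 of II (-1.03), 8 of 8 of III (-1.05), 10 of 11 of IV (-0.86), 13 of 17 of V (-0.95) and 7 of 8 assembly factors (-0.72). The summed level was 2.34-fold higher with PBS in complex III, 2.32-fold in V, 2.25-fold in II, 1.92-fold in IV and 1.84-fold in I. Complex I accordingly made up 27.0% ± 0.31 (SD, n = 3) of the I to V sum with PBS and 30.8% ± 0.17 with OSM, and complex V 37.1% ± 0.84 and 33.6% ± 0.42.

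Catalytic and electron-carrying subunits were among the clearest falls. Atp5b was at 2789.9, 2819 and 2827 CPM with PBS and 1042, 1043 and 1083 CPM with OSM. Uqcrfs1 was at 459.7, 393 and 369 CPM and 105, 120.3 and 123 CPM. Both were separated without overlap, by -1.31 ± 0.08 (adjusted p = 3.18e-20) and -1.70 ± 0.10. Ndufs7, which holds the last iron-sulfur cluster before ubiquinone, was at 255, 252 and 249.8 CPM and 76.2, 79.3 and 95.9 CPM (-1.47 ± 0.11). Sdhb was at 383, 379 and 351 CPM and 136, 120.3 and 134 CPM (-1.41 ± 0.10). Cox5a was at 181, 198 and 197 CPM and 77.8, 79.3 and 84.8 CPM (-1.15 ± 0.12). In these 3 genes every OSM library was below every PBS library. Uqcrc2, a core protein of complex III, fell by 1.50 ± 0.10. Cox6b1 and Cox8a, 2 small subunits of complex IV, fell by 0.86 ± 0.10 and 0.83 ± 0.10 with OSM and by 0.79 ± 0.07 and 0.53 ± 0.06 with Treg.

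Beside these falls, 13 members did not pass. Ndufa3 was at 85.0, 90.4 and 83.6 CPM with PBS and 88.3, 62.5 and 108 CPM with OSM, Ndufa7 at 131, 127 and 106 and 123, 136 and 117 CPM, and Ndufv3 at 157, 115 and 114 and 117, 125 and 139 CPM. Ranges overlapped in all 3 accessory subunits of complex I, and their log2 changes were 0.12 ± 0.15, 0.14 ± 0.12 and 0.10 ± 0.13. Atp5g2 (0.03 ± 0.31), Atp5md (-0.33 ± 0.18) and Cox7a2l (-0.04 ± 0.11) did not pass either; Cox7a2l was at 151, 149 and 150.1 CPM with PBS and 132, 133 and 141 CPM with OSM. Its OSM libraries were all below its PBS libraries by a small margin, and missing the threshold does not show that levels were equal.

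Other genes of the pathway split. All 8 electron carriers tested fell with OSM (median -1.39), with Cycs lower by 2.30 ± 0.15 and Cyc1, the cytochrome c1 of complex III, which the rule does not take, by 1.82 ± 0.09. Of 32 assembly factors 16 fell, of 4 inhibitor and carrier genes 3, and of 13 biogenesis regulators 6. Ppargc1b was at 62.6, 42.8 and 53.7 CPM with PBS and 2.41, 2.80 and 0 CPM with OSM, and Ppargc1a at 20.1, 22.1 and 24.7 and 3.21, 2.80 and 0.657 CPM. Both were separated without overlap, with log2 changes of -4.88 ± 0.40 and -3.25 ± 0.45, and Esrra fell by 1.38 ± 0.33. Of 8 mitochondrially encoded subunits tested 6 fell and mt-Co1 rose by 0.23. Summed adipocyte markers were 13137 to 14929 CPM with PBS and 1013 to 1480 CPM with OSM (7 of 8 detected, Lep at 0 in both), stromal markers 11664 to 11994 and 51108 to 60755 CPM, and proliferation markers 459 to 491 and 339 to 380 CPM. The 6 endothelial markers, all detected, summed to 33.2 to 37.5 CPM with PBS and 131 to 162 CPM with OSM, and 4 of 4 tested rose. The 5 mesothelial markers summed to 76.7 to 104 CPM and 121 to 174 CPM (Upk3b at 0 with OSM), and of 4 tested 1 rose and 3 fell. The part of these shifts in the members' fall was not tested.

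The Treg and OSM comparisons share no libraries, so their members can be set side by side. Of the 84 members lower with Treg and the 72 lower with OSM, 71 were in both (84.5% and 98.6%), and Ndufa4l2 was higher in both. Cox4i2, the other member higher with OSM, was not tested with Treg. Nearly all members tested fell with Treg, so a large overlap of lower members was bound to occur. The overlap over all genes is not given here. Ndufaf5 was the member lower with OSM alone, named after its values were seen. The difference between the responses, tested in 1 fit of the 4 groups, passed for 42 of 89 members, 32 lower and 10 higher under OSM, against 17.5% and 15% of all 12112 genes. Its median was -0.23 over members and 0.03 over all genes. Members with a deeper fall under OSM included 12 subunits of complex I, 3 of 4 of II, 5 of 8 of III, 3 of IV and 6 of V. Atp5b differed by -0.81 ± 0.09, Uqcrfs1 by -0.76 ± 0.12, Ndufs7 by -0.87 ± 0.12 and Atp5g3 by -0.70 ± 0.11. Members with a shallower fall or none included Uqcrh (0.61 ± 0.12), Ndufa3 (0.79 ± 0.17), Ndufv3 (0.70 ± 0.14) and Ndufa7 (0.57 ± 0.14). The change of Uqcrh was -1.09 ± 0.06 with Treg and -0.52 ± 0.11 with OSM. The 2 experiments differ in depth (4648878 to 7933682 counts against 1072147 to 2078534) and in the members' level in the control cultures (42409 CPM without Treg, 21539 CPM with PBS). The part of either was not tested.

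**Figure D3:**
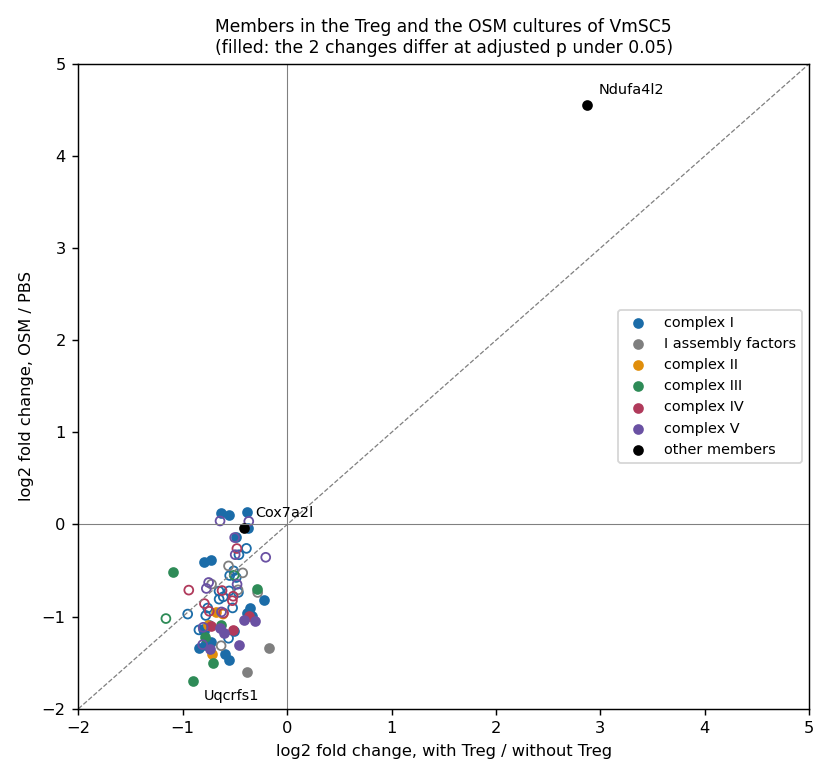
Log2 fold change of each member with Treg (horizontal) and with OSM (vertical), colored by complex; filled points are the members whose 2 changes differed at adjusted p under 0.05, and the dashed line marks equal change. Most points lie in the lower left corner and below the line, while Uqcrh, Ndufa3, Ndufv3 and Ndufa7 lie above it and Ndufa4l2 stands alone at the upper right.

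Isoform pairs departed from the common pattern. Ndufa4 is a subunit of complex IV despite its name, and Ndufa4l2 is its hypoxia-inducible paralog. Ndufa4l2 (chr10:127514967-127517154, plus strand) was at 1.39, 2.15 and 2.37 CPM without Treg and 15.1, 15.7 and 12.1 CPM with Treg, and at 10.0, 7.22 and 7.67 CPM with PBS and 201, 176 and 164 CPM with OSM. Both increases were free of overlap, with log2 changes of 2.88 ± 0.25 (adjusted p = 2.85e-12) and 4.55 ± 0.19 (adjusted p = 7.21e-26), and the rise was larger under OSM by 1.74 ± 0.39. Ndufa4 meanwhile fell, from 494, 385 and 377 CPM to 169, 183 and 193 CPM under OSM. Ndufa4l2 therefore made 0.966% ± 0.0443 (SD, n = 3) of the pair's CPM/kb with PBS and 32.9% ± 3.73 with OSM. Its share of the pair's CPM/kb was 0.108% ± 0.0276 without Treg and 1.31% ± 0.299 with it. In fresh cells Ndufa4l2 was at 7.91, 5.72 and 12.8 CPM in VmSC4 and 16.9, 16.8 and 36.4 CPM in VmSC5, higher in VmSC5 without overlap (1.50 ± 0.33, adjusted p = 0.00343), and it fell in VmSC5-derived VmSC5 to 7.84 and 3.34 CPM (-2.10 ± 0.43). In WT Treg cells it had 0 counts.

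Cox4i2 (chr2:152754173-152765037, plus strand), the lung and hypoxia isoform of Cox4i1, was the other member higher with OSM, at 1.55, 1.44 and 3.41 CPM with PBS and 20.9, 9.33 and 13.8 CPM with OSM (2.94 ± 0.49, adjusted p = 1.48e-06). Its libraries did not overlap, although its share of the pair's CPM/kb stayed small, 0.361% and 4.25%. In the Treg comparison Cox4i2 was not tested, with 10 counts over the libraries without Treg and 34 with Treg. Its share of the pair there was 0.0354% without and 0.147% with Treg, also without overlap. Under OSM, Cox6a2 went the other way and almost vanished. It had 29 counts over the PBS libraries (9.27, 4.81 and 5.97 CPM) and 1 count over the OSM libraries (0.802, 0 and 0 CPM). By contrast, it was at 11.6, 15.5 and 12.7 CPM without and 12.1, 9.73 and 12.9 CPM with Treg. Its partner Cox6a1 had log2 changes of -0.78 ± 0.10 with OSM and -0.52 ± 0.08 with Treg. Cox7a2, the paralog of Cox7a2l inside complex IV, fell by 0.94 ± 0.11 with OSM, and Cox7a2l did not pass.

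**Figure D4:**
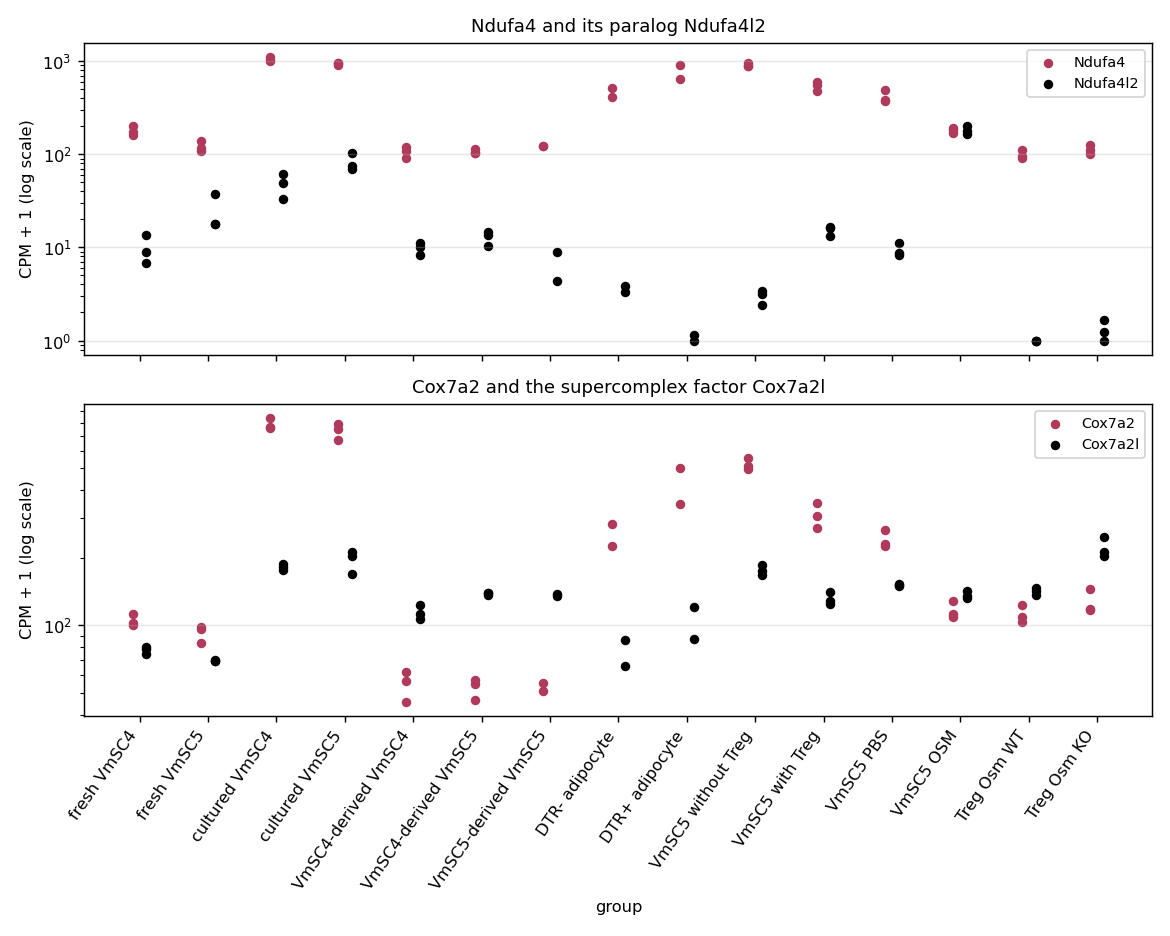
Levels of Ndufa4 and Ndufa4l2, and of Cox7a2 and Cox7a2l, in every library of the 15 groups as CPM + 1 on a log axis. Ndufa4l2 reaches 164 to 201 CPM with OSM while Ndufa4 drops to 169 to 193 CPM, and the group means of Cox7a2l span 3.21-fold.

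In the floating cells most members stood higher in DTR+ mice, but 1 library carried much of the difference. The median log2 change over 86 members was 1.32 against -0.04 over all 11803 genes, and 85 of 86 changes were positive. edgeR called 1 member higher and 0 lower (0.491% and 1.94% of all genes), 41 had an unadjusted p under 0.05, and DESeq2 called 3 (Sdhd, Cox4i1 and Atp5g3). For the unadjusted and DESeq2 counts the share of all genes is not given here. Medians were 1.71 in complex II, 1.56 in III, 1.37 in IV, 1.36 in V, 1.31 in I and 0.85 in the assembly factors. The called member was Sdhd, at 60.0 and 37.9 CPM in the 2 DTR- libraries and 148 and 322 CPM in the 2 DTR+ libraries, higher in both (2.84 ± 0.70, adjusted p = 0.0322). That call was lost with library totals alone (2.26), which lowered the median of all genes by 0.36. The median over members was then 0.78, with 83 changes positive. It stood 1.18 above the median of all genes, against 1.36 with TMM factors. Of the 86 members with a count in all 4 libraries, 71 were higher in CPM in every DTR+ library than in every DTR- library and 1, Cox4i2, was lower, when 15.9% and 33.2% of all such genes were. Cox4i2 had 1.52 and 1.07 CPM in DTR- and 0.133 and 0.136 CPM in DTR+, and Ndufa4l2 2.36 and 2.82 and 0 and 0.136 CPM (-4.53 ± 1.42, adjusted p = 0.10).

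The 2 DTR+ libraries did not agree in size. In DTR+ replicate 2, 74 of 86 members exceeded both DTR- libraries (33.5% of all genes with a count in all 4 libraries), with a median log2 ratio to the DTR- mean of 0.45 and 2 members above 1, and in replicate 3 the values were 82 members (26.1% of all genes), 1.12 and 50. Uqcrfs1 was at 427 and 303 CPM in DTR- and 453 and 800.5 CPM in DTR+, and Atp5b at 3216 and 2732 and 4061 and 4997 CPM. Both were higher in each DTR+ library, and more so in replicate 3. Sdha was at 1126 and 956 and 1509 and 831 CPM, and Ndufs1 at 208 and 207 and 284 and 89.0 CPM. For these 2 genes replicate 3 was the lowest of all 4 libraries and replicate 2 the highest. Replicate 3 also had the fewest genes detected, 15351 against 17598 in DTR+ replicate 2 and 17034 and 17903 in DTR-, at 7336742 counts against 5932453 to 7490677; the part of that in the members' difference was not tested. Without DTR+ replicate 2, 81 members were called, and without DTR+ replicate 3, 4 were (3 higher, with Sdhd and Cox4i1 among them, and Ndufa4l2 lower); leaving out either DTR- library gave 0. Of all genes, 2431 were called higher and 2939 lower of 12596 without DTR+ replicate 2, and 261 and 657 of 12846 without replicate 3. Each of these fits compares an arm of 1 library, which is assumed to vary like the 2 libraries of the other group. Summed markers of other cells were lower in DTR+, and Foxp3 was at 0 in DTR+, with 6 endothelial markers at 272 to 390 CPM in DTR- and 4.23 to 26.0 CPM in DTR+, 6 macrophage markers at 264 to 338 and 73.9 to 111 CPM, and 7 stromal markers at 655 to 1698 and 243 to 267 CPM. The 8 adipocyte markers summed to 29926 and 34266 CPM in DTR- and to 35427 and 45005 CPM in DTR+. All markers of these lists were detected in both groups. Their part in the members' difference was not tested.

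**Figure D5:**
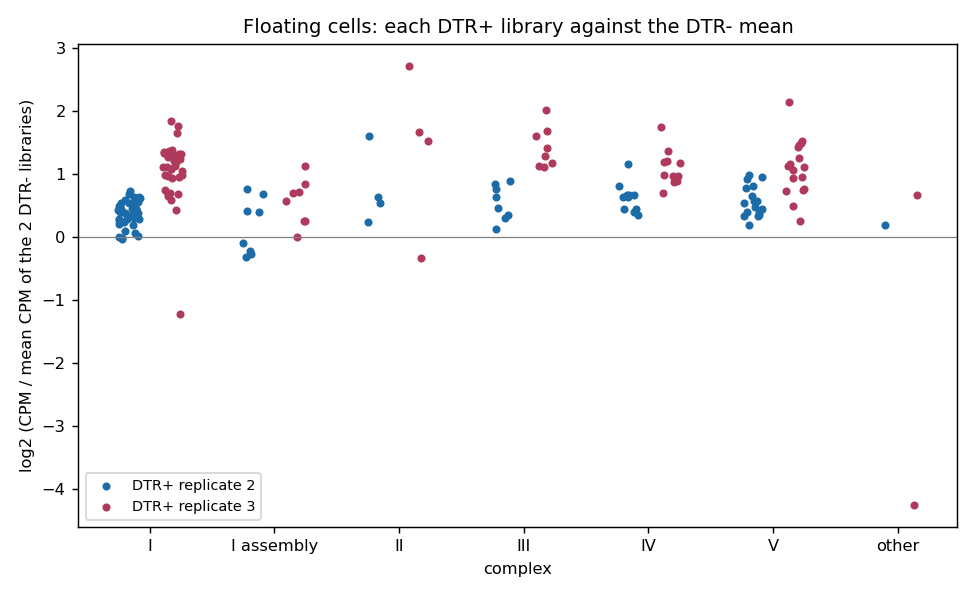
Log2 ratio of each member's CPM in each DTR+ floating cell library to the mean of the DTR- libraries, by complex. Replicate 3 lies mostly between 0 and 2 with a median of 1.12 and replicate 2 mostly nearer 0 with a median of 0.45.

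In Treg cells of OSMf/f mice the members did not pass the test. edgeR called 0 of 85 (0.0526% of all 11416 genes), 6 had an unadjusted p under 0.05, and DESeq2 called 1, Cox7a2l. For the unadjusted and DESeq2 counts the share of all genes is not given here. The median log2 difference of KO from WT was 0.19 against 0.01 over all genes, and 15 of the 85 members with a count in all 6 libraries were higher in every KO library while 0 were lower, when 6.01% and 9.34% of all such genes were. Cox7a2l was at 135, 142 and 146 CPM in WT and 202, 247 and 211 CPM in KO, with every KO library above every WT library (0.68 ± 0.16, adjusted p = 0.29). Uqcrfs1 was at 130.5, 128 and 120.2 CPM and 179, 176 and 134 CPM, also without overlap (0.41 ± 0.17, adjusted p = 0.46). Cox4i1 had a log2 difference of 0.42 ± 0.14 (adjusted p = 0.38). Atp5b was at 867, 719 and 761 and 724, 612 and 693 CPM and overlapped between the groups. None of the assembly factors, carriers, regulators or mitochondrially encoded subunits passed either. Depth was 3341231 to 4438234 counts in WT and 1507163 to 4172262 in KO.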

How the data were processed

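Gene counts of 42 libraries were taken as deposited, in 1 table of raw counts made by the authors. The submitters' processing notes say that reads were aligned to mm10 with STAR 2.7.3a and counted with featureCounts; the annotation release, strand setting and treatment of shared reads are not given in the sources used here. Per the labels' protocols, sorted cells, lysed wells or purified RNA of floating cells entered an ultra-low-input protocol. No library was left out. The symbol rule uses no measured difference, but the members it covers, the lists, tests and alternatives were chosen with earlier results of these data known.

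The test was the quasi-likelihood F test of edgeR 4.0.16 (R 4.3.3) with TMM scaling and robust dispersions, after its default filter at a minimum count of 10. Each alternative fit that used the filter applied it anew, so the members tested could differ. Fresh and transferred cells were fitted together, fresh and cultured cells together, and every other experiment alone; each difference of 2 responses was 1 contrast over its 4 groups. All tests were two-sided, p-values were adjusted (Benjamini-Hochberg) over all genes of a comparison, and adjusted p under 0.05 was a call. Counts at an unadjusted p under 0.05 and DESeq2 calls are given for the members only. Errors of log2 fold changes are SE, taken as the change divided by the square root of F. CPM divides by the library total, CPM/kb also by the median length of basic protein-coding transcripts in GENCODE M21, held for 89 members. A gene with 0 counts over a group has a floor of 3 counts, the 95% bound, which covers counting error only. Named were, for each comparison, the 3 higher and 3 lower members with the smallest adjusted p, members against the majority, 8 core subunits and the isoform pairs; others are marked. Alternatives were RLE scaling, library totals alone, DESeq2 1.42.0, no low-count filter, a replicate block, only the groups compared and each library left out, and, added after seeing the data, a crossed block for the floating cells. The steps were tested on simulated data.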

Additional observations from a re-analysis of the deposited data

Results flagged for a closer look

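The rise with adipogenic culture differed between VmSC5 and VmSC4 in 5 of 89 members by a test of the difference itself, when 1.85% of all genes rose more and 1.01% less in VmSC5. The count ran from 1 to 8 with 1 library left out, with 1 without cultured VmSC4 replicate 2 or cultured VmSC5 replicate 1. All 5 rose more in VmSC5 on the log2 scale, Ndufaf1 by 1.48, Ndufb4 by 1.23, Atp5md by 0.97, Ndufv2 by 0.90 and Ndufc1 by 0.79. Ndufb4, an accessory subunit of complex I, had log2 rises of 3.94 ± 0.21 in VmSC5 and 2.71 ± 0.19 in VmSC4.

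The response to OSM differed from the response to Treg in 42 of 89 members by the same kind of test, 32 lower and 10 higher, when 17.5% and 15% of all genes were. Among the named members, lower under OSM than under Treg were Cox6a2 (-4.11), Ndufs7 (-0.87), Atp5b (-0.81), Uqcrfs1 (-0.76), Atp5g3 (-0.70), Sdhb (-0.65), Cox5a (-0.59), Ndufs1 (-0.48), Uqcrc1 (-0.40), Ndufa4 (-0.33), Ndufv1 (-0.32) and Sdha (-0.23). Higher under OSM than under Treg were Ndufa4l2 (1.74), Ndufa3 (0.79), Ndufv3 (0.70), Uqcrh (0.61), Ndufa7 (0.57) and Cox7a2l (0.41). Ndufa4l2 rose in both experiments, and the fitted value for Cox6a2 rests on 1 count with OSM. No group held 4 or more libraries, so single libraries were not tested for standing apart.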

How the results depend on the processing

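The counts of called members stayed within 1.5 times of those reported in 69 of 79 other settings and in 74 of 92 fits with 1 library left out. No named member that was called changed direction in any fit run, and the other members were not checked for that. Median log2 changes over members moved by more than the replicate spread in 6 of 57 other settings and 7 of 57 fits with 1 library left out, and levels in 14 of 32 other settings. Leaving out 1 library gave 89 to 90 members in both culture comparisons, 81 to 85 with Treg, 67 to 74 with OSM, 60 to 69 after transfer in VmSC4, 44 to 56 in VmSC5 and 32 to 45 for the difference between OSM and Treg. The range was 7 to 20 for the fresh populations (reported: 16) and 1 to 8 for the difference in culture response (5). Sdhd in VmSC4-derived VmSC5 against VmSC4-derived VmSC4 was the 1 call there, and the count was 0 with RLE scaling, library totals alone, no low-count filter or the replicate block and 0 to 0 with a library left out. For cultured VmSC5 against cultured VmSC4, fitting only the groups compared gave 1 (Cox6a2). For the floating cells the count of 1 became 3 with DESeq2, 0 with library totals alone and 0 with the replicate block, and 0 to 81 with a library left out. In Treg cells DESeq2 gave 1, and 0 to 2 were called with a library left out, 2 of them (Cox7a2l and Cox4i1) without KO replicate 1. The ratio of highest to lowest group mean was 14 with TMM factors over all libraries. The causes of these changes were not tested, apart from fewer libraries where 1 was left out. Of the single members named, 1724 values at other settings kept their side of the threshold, 18 lost it and 11 gained it.

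The reported tests did not pair libraries by replicate number. Correlations of same-numbered deviations were not all above 0.1 in any comparison, a cut-off that cannot exclude pairing. For cultured VmSC5 against cultured VmSC4 they were 0.164, 0.163 and 0.0654. With the replicate number as a block, 16 members were called for the fresh populations, 89 and 89 in culture, 66 and 56 after transfer, 85 with Treg, 75 with OSM, 37 for the difference between OSM and Treg, 6 for the difference in culture response and 0 in Treg cells. In the floating cells the same-numbered libraries had a correlation of -0.40, a single value because 2 deviations from a group mean mirror each other. A block with the numbers crossed called 5 there. Calls of low members such as Cox4i2, Cox6a2 and Cox6b2 are limited by depth, as 333 to 655 counts were all they had over 42 libraries.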
